A study of Mus musculus with 8 samples.

Results

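The transforming growth factor β (TGFβ) isoforms and the receptors that bind them were examined in cultured dermal fibroblasts whose *Tgfb1* gene had been deleted. All 8 genes named for this group, the isoforms *Tgfb1*, *Tgfb2* and *Tgfb3* and the receptors and co-receptors *Tgfbr1*, *Tgfbr2*, *Tgfbr3*, *Eng* and *Acvrl1*, were found by their symbol among the 15111 genes of the deposited table. Controls were tamoxifen-fed adult *Tgfb1*fl/fl mice without Cre recombinase, and TGFβ1FKO mice were tamoxifen-fed adult *Tgfb1*fl/fl:*Col1a2*-CreERT mice. Both groups thus carried the floxed alleles and received tamoxifen, and Cre was driven by the *Col1a2* promoter and enhancer, so that deletion was aimed at collagen-producing cells. Fibroblasts were kept in serum-free replacement medium on fibronectin for 72 h before poly-A RNA was sequenced, with 4 libraries per group. The labels number the libraries without naming mice, so the p-values below measure the spread between these libraries, which may be technical. The question was whether fibroblasts that lose *Tgfb1* alter the RNA of the other isoforms or of the receptors.

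TGFβ isoforms are secreted as latent dimers that are stored in the extracellular matrix until they are activated. The active dimer is bound by the type II receptor, which recruits and phosphorylates a type I receptor, which in turn activates Smad transcription factors. In fibroblasts this pathway is known for the induction of matrix genes and of the contractile apparatus of myofibroblasts. Endoglin and the type I receptor ALK1 are best known from endothelial cells, where they also serve bone morphogenetic proteins.

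The isoforms are close relatives, so it was first examined whether their reads can be told apart. Over the last 339 coding bases, which encode the mature growth factor and the stop codon, *Tgfb1* shared 68.7% of its bases with *Tgfb2* and 73.7% with *Tgfb3*, and *Tgfb2* and *Tgfb3* shared 70.8%. The last 120 coding bases of each isoform, from the GENCODE M21 transcripts on GRCm38, are shown 5′ to 3′ to let the isoforms be compared base by base within this region. Capitals mark the 78 bases that are the same in all isoforms.
Tgfb1: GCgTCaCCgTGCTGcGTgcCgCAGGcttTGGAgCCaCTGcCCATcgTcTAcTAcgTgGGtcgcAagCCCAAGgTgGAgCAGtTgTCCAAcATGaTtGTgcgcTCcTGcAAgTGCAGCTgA
Tgfb2: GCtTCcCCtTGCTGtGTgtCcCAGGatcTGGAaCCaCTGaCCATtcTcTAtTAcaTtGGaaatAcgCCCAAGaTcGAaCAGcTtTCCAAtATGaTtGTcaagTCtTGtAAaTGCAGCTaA
Tgfb3: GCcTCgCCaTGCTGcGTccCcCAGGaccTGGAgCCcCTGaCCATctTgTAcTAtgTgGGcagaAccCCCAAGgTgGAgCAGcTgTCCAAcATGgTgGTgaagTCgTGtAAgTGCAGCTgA
The differences are scattered through the stretch, and no run of bases common to all isoforms was longer than 7. The longest run of identical bases between the annotated transcripts of any isoform pair was 15, and among all 28 pairs of the 8 genes it was 38, between *Tgfb1* and *Tgfbr2*. Reads were 150 bases long, so no read of full length could match transcripts of 2 of these genes without a mismatch.

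Values are normalised counts, that is, reads divided by the size factor of the library. Groups were compared with limma on log2(normalised count + 1), and a call needed both an adjusted p-value (Benjamini-Hochberg) under 0.05 and a log2 fold change beyond 0.6 in either direction. Among all genes tested, 13 were called, or 0.086%, with 12 lower (0.0794%) and 1 higher (0.00662%) in TGFβ1FKO fibroblasts. The reads summed to between 16988998 and 23071528 per library. All 12 fibroblast markers looked for were measured, with summed normalised counts of 1397370 to 1712990 in control and 1463890 to 1625710 in TGFβ1FKO libraries, and none was called. In bulk RNA, fewer cells of a type and less RNA per cell cannot be told apart.

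*Tgfb1* was the 1 gene of the 8 that was called. *Tgfb1* (ENSMUSG00000002603, GRCm38 chromosome 7, 25687002 to 25705077), the isoform that was deleted, had normalised counts of 1401, 1298, 1483 and 1314 in the control libraries 1 to 4. In TGFβ1FKO libraries 1 to 4 it had 326.4, 259.9, 228.4 and 294.7. Every TGFβ1FKO library lay far below every control library. Its log2 fold change was -2.31 with a 95% interval of -2.53 to -2.10 (adjusted p = 1.53e-07, limma), which left 20.2% of the control mean. The counts are per gene, so it cannot be read from them whether the remaining reads came from the floxed exons, from the rest of the deleted allele or from cells without deletion. The relative spread of the remaining signal was wider than in controls, with a coefficient of variation of 15.3% against 6.21%. The mean count was also lower (277 against 1374), and the part of counting error in this spread was not tested.

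Among genes outside the group of 8, those whose pattern over the 8 libraries lay closest to that of *Tgfb1* were then looked for. Likeness was measured as the root mean square difference of log2 values, each centred on the mean of its gene, among 11561 genes whose normalised counts averaged 50 or more. The difference between the groups enters this measure, so it favours genes lower in TGFβ1FKO libraries and does not measure covariation within a group. *B9d2*, which ends 443 bases upstream of *Tgfb1* on the same strand (GRCm38 chromosome 7, 25680780 to 25686558), was closest at 0.388. Its normalised counts were 116.5 to 179.6 in control and 37.7 to 62.8 in TGFβ1FKO libraries. By limma *B9d2* was itself called lower, with a difference of -1.64 on the log2 scale and an adjusted p-value of 0.00499. Its reads and those of *Tgfb1* were not separated here beyond the authors' assignment to genes. *Sema4f*, a semaphorin, followed at 0.58, and its log2 fold change was -2.12 without a call (adjusted p = 0.0649, limma).

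**Figure D1:**
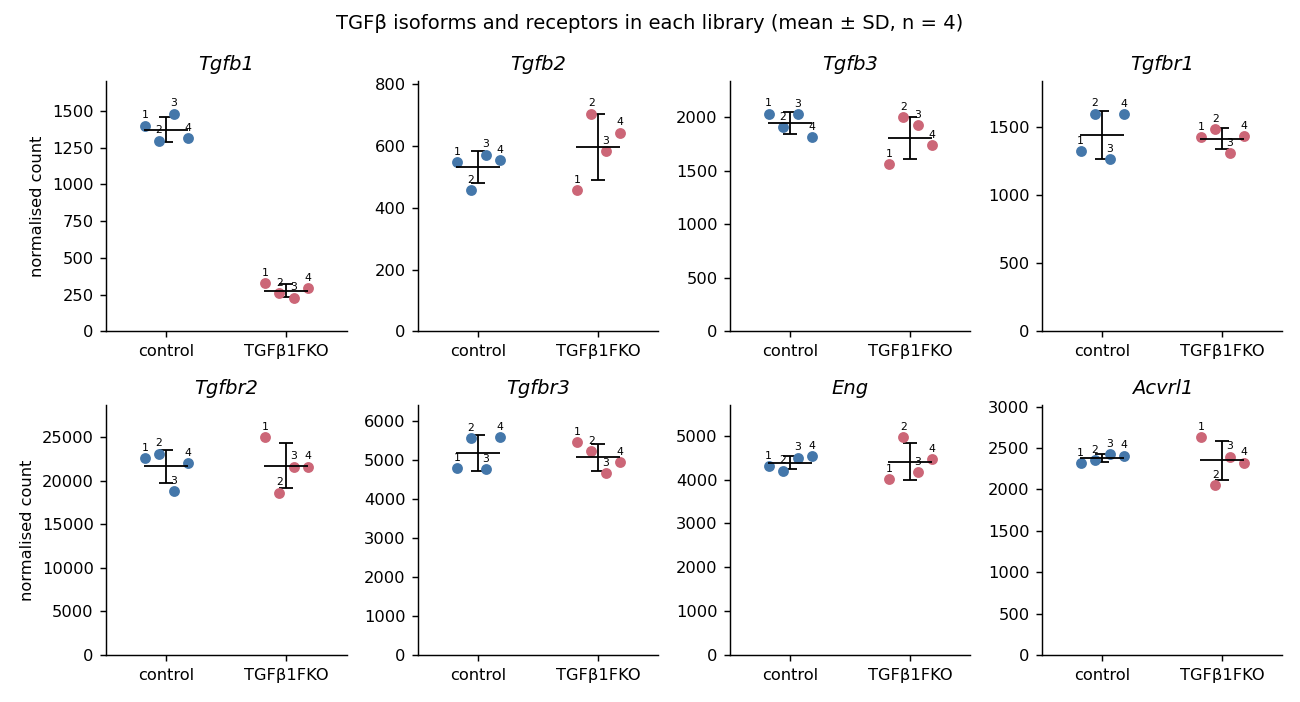
Normalised count (y axis, from 0) of each gene in the 4 control (blue) and 4 TGFβ1FKO (red) libraries, numbered by replicate, with mean ± SD. The groups are apart in *Tgfb1* alone (228.4 to 326.4 against 1298 to 1483) and overlap in the other 7 genes.

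The other isoforms did not pass the test, in either direction. *Tgfb2* (ENSMUSG00000039239, GRCm38 chromosome 1, 186622792 to 186705989), the isoform that depends most on betaglycan for receptor binding, had normalised counts of 548, 456.9, 572.2 and 555 in control libraries. In TGFβ1FKO libraries it had 457.1, 705.3, 582.9 and 643.7. TGFβ1FKO libraries 2, 3 and 4 lay above all controls, whereas library 1 lay level with the lowest control. The log2 fold change of *Tgfb2* was 0.15 with a 95% interval of -0.11 to 0.41 (adjusted p = 0.81, limma), so that a level between 92.7% and 133% of the control was within the interval. Without TGFβ1FKO replicate 1 it was 0.27, with an unadjusted p-value of 0.0155 but an adjusted p-value of 0.413 (limma). The within-group spread of *Tgfb2*, 0.217 on the log2 scale, was the widest of the 8 genes.

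*Tgfb3* (ENSMUSG00000021253, GRCm38 chromosome 12, 86056745 to 86079041), an isoform known from palate fusion and scar formation, had 2034, 1905, 2030.3 and 1817 normalised counts in control libraries. The TGFβ1FKO libraries had 1564, 1999, 1925 and 1741. TGFβ1FKO libraries 1 and 4 lay below all controls, and libraries 2 and 3 lay within the control range. The log2 fold change of *Tgfb3* was -0.11 with a 95% interval of -0.28 to 0.05 (adjusted p = 0.76, limma). The exact two-sided permutation test of the normalised counts gave p = 0.286 for *Tgfb2* and p = 0.257 for *Tgfb3*, where 4 libraries against 4 allow no p below 0.0286.

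Levels of different genes were compared as normalised counts per kilobase of the longest protein-coding transcript. On this scale *Tgfb1* had 632 ± 39.2 (SD, n = 4) and *Tgfb3* 575 ± 31.0 (SD, n = 4) in control fibroblasts, and *Tgfb2* had 104 ± 10.1 (SD, n = 4). *Tgfb1* lay above *Tgfb3* within each control library, although their ranges touched (597 to 682 against 537 to 601). *Tgfb1* therefore made up 48.2% ± 0.585 (SD, n = 4) of the isoform RNA per length in controls, *Tgfb3* 43.9% ± 1.04 and *Tgfb2* 7.94% ± 0.629. In TGFβ1FKO fibroblasts *Tgfb3* made up 68.5% ± 2.99 (SD, n = 4), *Tgfb1* 16.6% ± 3.68 and *Tgfb2* 14.9% ± 1.68. The shares add up to 100% within a library, and the level of *Tgfb2* and *Tgfb3* together was 680 ± 35.4 (SD, n = 4) per kilobase in control and 651 ± 75.3 in TGFβ1FKO libraries. The summed level of all isoforms fell to 59.4% of the control, from 1311 ± 73.2 to 778 ± 60.1 (SD, n = 4). The level of *Tgfb3* was 5.56 ± 0.568 (SD, n = 4) times that of *Tgfb2* in control and 4.64 ± 0.529 times in TGFβ1FKO libraries, with overlapping ranges (4.95 to 6.31 against 4.09 to 5.17).

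These shares depend on the length assigned to *Tgfb1*, whose protein-coding transcript has 2175 bases, whereas all its annotated exons, retained introns included, cover 5042. With all annotated exons as length, *Tgfb1* made up 29.0% of the isoform level in controls and 8.08% in TGFβ1FKO fibroblasts, and *Tgfb3* 61.2% and 77.1%. *Tgfb3* then led in both groups, and the sum was 939.9 ± 50.8 in control and 692 ± 66.3 in TGFβ1FKO libraries (SD, n = 4).

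**Figure D2:**
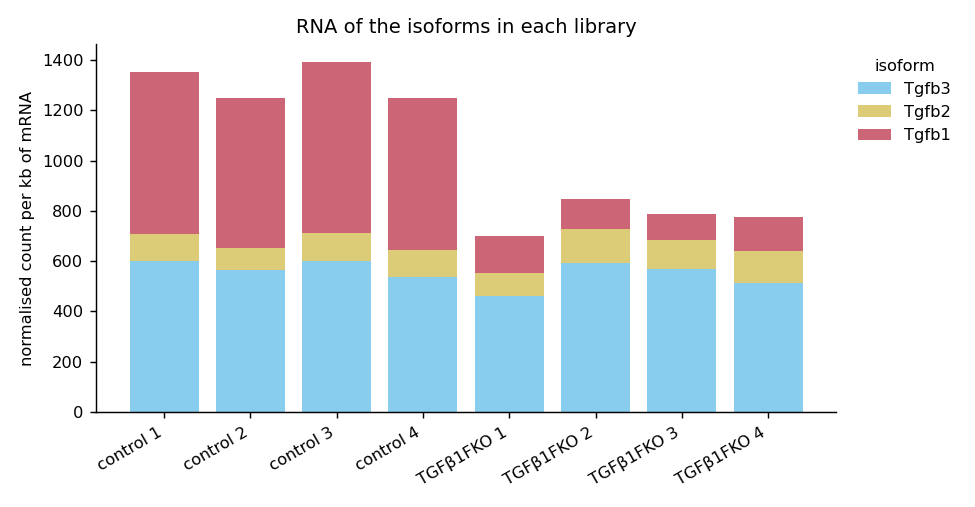
Normalised count per kilobase of the longest protein-coding transcript (y axis) of the 3 isoforms, stacked, in each of the 8 libraries. The *Tgfb1* part shrinks from 597 to 682 in control to 105 to 150 in TGFβ1FKO libraries, while the *Tgfb2* and *Tgfb3* parts together stay between 552 and 729.

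None of the 5 receptors and co-receptors was called, and in each of them the groups overlapped. Their log2 fold changes lay between -0.03 and 0.00 and their 95% intervals between -0.20 and 0.20, and their unadjusted p-values between 0.721 and 0.99 (limma). Expressed as levels, the intervals covered between 87.1% and 115% of the control. The summed level per kilobase of the 5 genes was 99.7% of the control. Of that sum *Tgfbr2* made up 46.8% in control and 47.0% in TGFβ1FKO fibroblasts, *Eng* 22.5% and 22.7%, *Tgfbr3* 14.9% and 14.6%, *Acvrl1* 11.5% and 11.3%, and *Tgfbr1* 4.39% and 4.33%.

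*Tgfbr2* (ENSMUSG00000032440, GRCm38 chromosome 9, 116084293 to 116175360), the type II receptor that binds the ligand first, had 22610.1, 23127, 18837 and 22031 normalised counts in control libraries. TGFβ1FKO libraries had 24986, 18638, 21615 and 21627. The highest and the lowest of all 8 libraries were both TGFβ1FKO libraries, 1 and 2. The difference between the groups was 0.00 on the log2 scale, with a 95% interval of -0.19 to 0.20 (adjusted p = 0.998, limma).

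*Tgfbr1* (ENSMUSG00000007613, GRCm38 chromosome 4, 47353222 to 47414931), the type I receptor ALK5 that phosphorylates the TGFβ-activated Smads, had 1326, 1600.1, 1264 and 1595 normalised counts in control libraries. The values of TGFβ1FKO libraries, 1428, 1489, 1313 and 1437, all lay within the control range. For *Tgfbr1* the log2 fold change was -0.02 with a 95% interval of -0.20 to 0.15 (adjusted p = 0.964, limma). Per kilobase, the level of *Tgfbr2* was 10.7 ± 1.00 (SD, n = 4) times that of *Tgfbr1* in control and 10.9 ± 1.53 times in TGFβ1FKO libraries.

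*Acvrl1* (ENSMUSG00000000530, GRCm38 chromosome 15, 101128522 to 101145336), which encodes ALK1, had 2324, 2357, 2431 and 2411 normalised counts in control libraries, the narrowest spread of the 8 genes. TGFβ1FKO libraries had 2630.4, 2054, 2397 and 2326, with library 1 above and library 2 below all controls. For *Acvrl1* the log2 fold change was -0.02 with a 95% interval of -0.17 to 0.12 (adjusted p = 0.958, limma). The level of *Acvrl1* per kilobase was 2.63 ± 0.335 (SD, n = 4) times that of *Tgfbr1* in control and 2.63 ± 0.343 times in TGFβ1FKO libraries.

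*Tgfbr3* (ENSMUSG00000029287, GRCm38 chromosome 5, 107106570 to 107289629), which encodes the ligand-presenting co-receptor betaglycan, had 4788, 5559, 4765 and 5583 normalised counts in control libraries. TGFβ1FKO libraries had 5462, 5232, 4667 and 4945. Library 3 of TGFβ1FKO was lowest, and the others lay within the control range. For *Tgfbr3* the log2 fold change was -0.03 with a 95% interval of -0.18 to 0.13 (adjusted p = 0.954, limma).

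*Eng* (ENSMUSG00000026814, GRCm38 chromosome 2, 32646595 to 32682669), which encodes the co-receptor endoglin, had 4312, 4207, 4501 and 4540.1 normalised counts in control libraries. TGFβ1FKO libraries had 4019, 4965, 4174 and 4476, with libraries 1 and 3 below and library 2 above all controls. For *Eng* the log2 fold change was 0.00 with a 95% interval of -0.14 to 0.14 (adjusted p = 0.996, limma). The last exons of *Eng* overlap those of *Fpgs* on the other strand by 61 bases, and the libraries were not directional, so reads there cannot be assigned by strand. Exons of *Tgfb2*, *Tgfb3*, *Tgfbr3* and *Acvrl1* overlap those of other annotated genes by more bases, but none of these other genes was measured. The part of such overlaps in the counts was not tested.

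*Eng* and *Acvrl1* are also markers of endothelial cells, so the endothelial markers are given beside them. Of 19 such genes, 18 were measured, and their summed normalised count was 885.9 to 1379 in control and 872.7 to 917.6 in TGFβ1FKO libraries. All 18 had a log2 fold change under 0, with a median of -0.53, and none was called. Of the 18, 2 had an unadjusted p-value under 0.05 (limma), against 7.46% of all genes. Of the defining markers, *Pecam1* was at 26.7 to 71.0 in control and at 16.6 to 44.5 in TGFβ1FKO libraries. *Cdh5* was at 93.8 to 208.5 in control and at 54.7 to 157.8 in TGFβ1FKO libraries. *Kdr* was at 100.7 to 250.3 in control and at 99.6 to 138.8 in TGFβ1FKO libraries. *Tek* was at 213.4 to 357 in control and at 154.3 to 291.9 in TGFβ1FKO libraries. *Eng*, with at least 4019 normalised counts, and *Acvrl1*, with at least 2054, each lay above the sum of all endothelial markers in every library. These counts are not divided by length and no endothelial cells were measured, so they do not tell which cells the reads of *Eng* and *Acvrl1* came from. Of 15 macrophage markers 5 were measured, without the defining *Ptprc* and *Adgre1*, with a sum of 563.1 to 652.8 in control and 379.5 to 621.4 in TGFβ1FKO libraries. Of 11 pericyte markers 9 were measured, 5 with a log2 fold change under 0 and 4 above, with a median of -0.16. None was called, and 3 had an unadjusted p-value under 0.05 (limma), which 7.46% of all genes had. The summed pericyte markers were 32029 to 38999 in control and 36543 to 44007 in TGFβ1FKO libraries. *Acta2* made up most of this sum, so the sum follows mainly that gene. Of 14 keratinocyte markers 7 were measured, 4 with a log2 fold change under 0 and 3 above, and none was called. Of the 7, 3 had an unadjusted p-value under 0.05 (limma). The sum of keratinocyte markers was 314.9 to 382.5 in control and 313 to 373.9 in TGFβ1FKO libraries. Of 13 Schwann cell markers 12 were measured, 10 with a log2 fold change under 0 and 2 above, with a median of -1.81. All 10 of the former had an unadjusted p-value under 0.05, and 2 of them, the transcription factors *Sox10* (140 ± 55.6 against 16.5 ± 6.25 normalised counts, SD, n = 4) and *Foxd3* (67.2 ± 36.5 against 6.22 ± 2.95), were called lower. Their summed normalised count was 11833 to 12302 in control and 10387 to 12419 in TGFβ1FKO libraries, and most of it came from *Pmp22* (7142 ± 705 against 7472 ± 1092) and *Ncam1* (2711 ± 227 against 2847 ± 179), the 2 markers above 0. The part of these cell types in the levels of the isoforms and receptors was not tested.

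**Figure D3:**
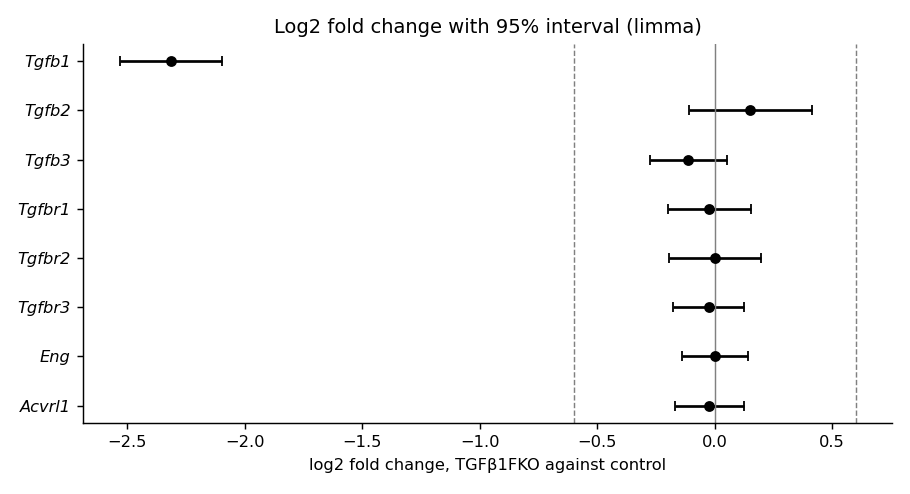
Log2 fold change of TGFβ1FKO against control fibroblasts (x axis) with its 95% interval from limma for each gene; dashed lines mark the threshold of 0.6 in either direction. *Tgfb1* lies at -2.31, and the intervals of the other 7 genes include 0 and stay inside the dashed lines.

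The intervals show how large a change could have been missed. For all 7 genes other than *Tgfb1*, the 95% interval lay within -0.6 to 0.6, as it did for 72.2% of all genes tested. The groups were apart in 1 of the 8 genes, *Tgfb1*, and in 3.79% of all genes (2.1% with TGFβ1FKO lower). No gene of the other 7 had an unadjusted p-value under 0.05, which 7.46% of all genes had, and no other setting that was tried called any of them. Of these 7 genes, 3 had a log2 fold change above 0 and 4 below.

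Ordered by level per kilobase, control fibroblasts had most RNA of *Tgfbr2* (2676 ± 238, SD, n = 4), followed by *Eng* (1283 ± 46.0), *Tgfbr3* (850.0 ± 75.4), *Acvrl1* (654 ± 13.5), *Tgfb1*, *Tgfb3*, *Tgfbr1* (251 ± 30.7) and *Tgfb2*. The ranges of *Acvrl1* and *Tgfb1* overlapped, as did those of *Tgfb1* and *Tgfb3*, whereas all other neighbours were apart. *Tgfbr2* lay above 97.2% of all genes on this scale and *Tgfb2* above 48.5%. In TGFβ1FKO fibroblasts *Tgfb1* (128 ± 19.5) stood below *Tgfbr1* (246 ± 12.9) and its range overlapped that of *Tgfb2* (117 ± 20.7). *Acvrl1* (646 ± 65.3) and *Tgfb3* (534 ± 57.6) overlapped there too, and the order of all other genes was that of the controls. With all annotated exons as length, *Tgfb1* stood below *Tgfb3* in control (272 against 575) and below *Tgfb2* in TGFβ1FKO fibroblasts (55.0 against 103).

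The libraries of a group differed from each other, and the genes did not all move together. In TGFβ1FKO library 1, *Tgfbr2* and *Acvrl1* were 0.21 and 0.17 above the mean of their group on the log2 scale, while *Tgfb2*, *Tgfb3* and *Eng* were at -0.37, -0.20 and -0.13. Library 2 showed the opposite, with *Tgfbr2* at -0.21 and *Acvrl1* at -0.19 against *Tgfb2* at 0.26, *Eng* at 0.18 and *Tgfb3* at 0.15. In controls, *Tgfbr1* and *Tgfbr3* went together, both lower in libraries 1 and 3 (-0.19 to -0.11) and higher in libraries 2 and 4 (0.11 to 0.15). Of the 7 genes other than *Tgfb1*, 5 had a larger SD in TGFβ1FKO than in control libraries and 2, *Tgfbr1* and *Tgfbr3*, had a smaller one. The within-group SD on the log2 scale ranged from 0.102 for *Eng* to 0.217 for *Tgfb2*, against a median of 0.12 over the 11561 genes with enough reads. These are descriptions of 4 libraries per group, and no test was made of them.

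**Figure D4:**
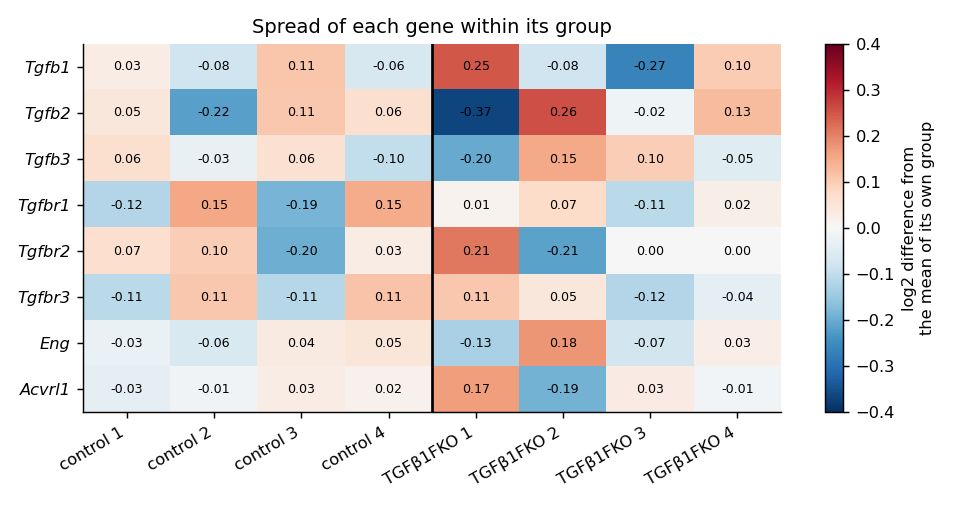
Difference of each library from the mean of its own group (log2 scale, colour and printed value) for the 8 genes (rows) and 8 libraries (columns; the line divides control from TGFβ1FKO). *Tgfbr2* and *Acvrl1* are high in TGFβ1FKO library 1 and low in library 2, while *Tgfb2*, *Tgfb3* and *Eng* are the reverse.

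Other genes of the pathway, on lists written with results of these data known, are given as counts. None of the measured genes of these lists was called, where 0.086% of all genes tested were. Of 14 related receptors and co-receptors, most of them for activins and bone morphogenetic proteins, 12 were measured, 5 lower and 7 higher. Their median was 0.06 on the log2 scale, and none had an unadjusted p-value under 0.05. The highest per kilobase were *Acvr1*, a type I receptor (1390 ± 78.8 against 1462 ± 44.1 normalised counts, SD, n = 4), and *Rgma*, a co-receptor (1495 ± 122 against 1441 ± 166). Of 24 related ligands 15 were measured, 9 lower and 6 higher, with a median of -0.12, and 3 (20.0%) had an unadjusted p-value under 0.05, against 7.46% of all genes. *Inhbb* and *Inhba*, the activin subunits, were the highest of these per kilobase, with log2 fold changes of 0.18 and 0.36 (adjusted p = 0.715 and 0.477, limma).

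Of 26 genes for the latency and activation of TGFβ 25 were measured, 13 lower and 12 higher, with a median log2 fold change of -0.02. Of these, 5 had an unadjusted p-value under 0.05, or 20.0%, 3 of them lower, against 7.46% of all genes. *Bgn*, a matrix proteoglycan, and *Thbs1*, an activator of latent TGFβ, were the highest per kilobase, with log2 fold changes of -0.03 and 0.21 (adjusted p = 0.947 and 0.708, limma). The largest difference on this list, in *Itgb8*, an integrin subunit that binds latent TGFβ, was chosen after its value had been seen. It was -1.45 (adjusted p = 0.169, limma), at low normalised counts of 49.9 ± 22.0 in control against 16.6 ± 3.74 in TGFβ1FKO libraries (SD, n = 4). All 26 Smads and feedback regulators were measured, 9 lower and 17 higher, with a median of 0.04. An unadjusted p-value under 0.05 was found in 2 of them (7.69%), near the 7.46% of all genes. *Strap* and *Ski*, inhibitors of Smad signalling, were the highest per kilobase, with log2 fold changes of 0.04 and 0.06. All 30 response genes were measured, 18 lower and 12 higher, with a median of -0.04, and 7 (23.3%) had an unadjusted p-value under 0.05, 5 of them lower. *Col1a1* and *Col1a2*, the chains of type I collagen, were the highest, with 0.03 and 0.00. The median over all genes tested was 0.00, and *Ski*, *Skil*, *Smad7* and *Pmepa1* are on both of the last lists.

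**Figure D5:**
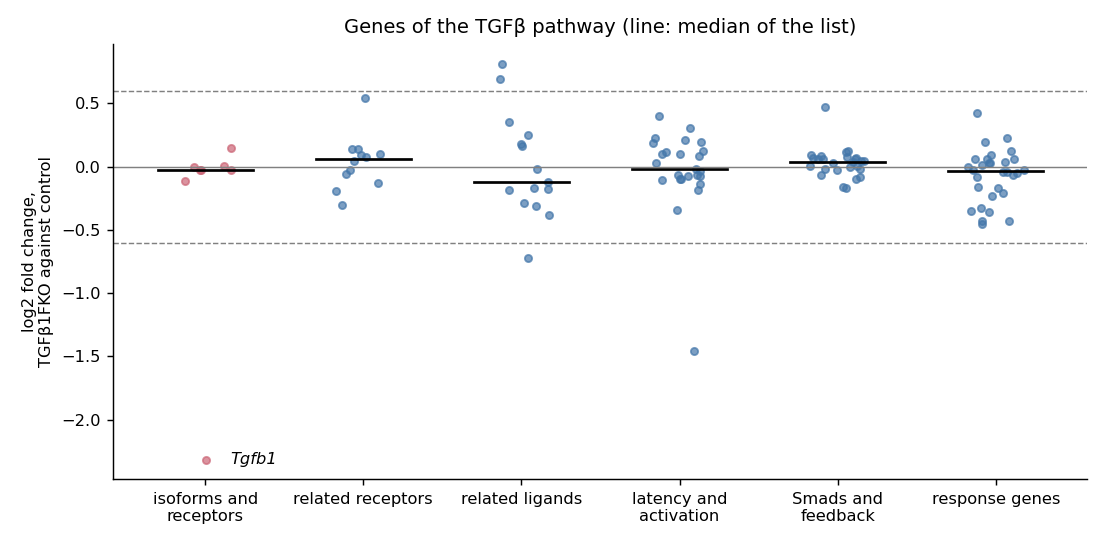
Log2 fold change of TGFβ1FKO against control fibroblasts (y axis) for the measured genes of each list, with the median as a line and the threshold of 0.6 dashed. *Tgfb1* is at -2.31, and the list medians lie between -0.12 and 0.06.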

How the data were processed

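Poly-A RNA of 8 fibroblast cultures (control and TGFβ1FKO, 4 each) was sequenced. Per the submitters' processing notes, reads were processed with CASAVA 1.8, HISAT2 2.0.5 on GRCm38, featureCounts 1.5.0-p3 and DESeq2 1.42.0 in R 4.3.2. The annotation release is not given in the sources used here. The authors left out genes with low summed counts and deposited normalised counts (signal), to which 0.5 had been added. Their fold change, error and p-value columns were not used.

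The 0.5 was subtracted, which left whole multiples of 1 step in 100% of values per library (tolerance 0.01 of a step), and these were summed as depth. log2(value + 1) was fitted with limma 3.58.1 (R 4.3.3, mean-variance trend), after a test on simulated data. Single genes were also compared with exact permutation tests (scipy 1.17.1). Lengths, coordinates and sequences came from GENCODE M21, in which 15098 genes were found.

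Genes named were the 8 members, those called or highest per kilobase on fixed lists, the neighbour *B9d2*, and those closest to *Tgfb1* in pattern, of which 1 is not reported here. Outside this rule, *Itgb8*, single cell type markers, the overlapping *Fpgs* and genes shared by lists were named after their values were seen. Members and lists were chosen with earlier results of these data known. Alternatives covered pseudocount, filter, scaling, threshold, block, length and left-out libraries.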

Additional observations from a re-analysis of the deposited data

How the results depend on the processing

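*Tgfb1* was called, and none of the other 7 genes was, in all 16 other settings. Its log2 fold change was -2.40 to -2.23 with a library left out and -2.33 to -2.30 otherwise. The number of genes called over the whole table, 13, was 3 with at least 10 reads in every library (which left 12946 genes), 4 when limma tested for changes beyond 0.6 on the log2 scale, and 5 to 32 with a library left out, the highest number without control replicate 4 and the lowest without control replicate 3, TGFβ1FKO replicate 2 or TGFβ1FKO replicate 4. The replicate number as a block gave 31. Same-numbered libraries deviated together only in part (correlations over genes of 0.156, -0.134, 0.0523 and 0.159), and not every library correlated best with its own number (control 4 with TGFβ1FKO 2 at 0.387), so the numbers were not taken to pair them, and the block called no gene of the 8 other than *Tgfb1*. For the block and the test against 0.6, the cause was not tested.

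The sign of the receptor fold changes near 0 was not stable. With a library left out, the log2 fold change ranged from -0.085 to 0.028 for *Tgfbr1*, from -0.069 to 0.072 for *Tgfbr2*, from -0.064 to 0.014 for *Tgfbr3*, from -0.057 to 0.045 for *Eng* and from -0.079 to 0.040 for *Acvrl1*. With libraries scaled to equal totals or to equal upper quartiles, *Tgfbr2* was at -0.018 and *Eng* at -0.017. *Tgfb2* stayed above 0 (0.07 to 0.27) and *Tgfb3* below 0 (-0.16 to -0.04) with each library left out. With all annotated exons as length, the shares of the isoform level were 29.0% for *Tgfb1*, 9.79% for *Tgfb2* and 61.2% for *Tgfb3* in controls, and 8.08% for *Tgfb1* and 77.1% for *Tgfb3* in TGFβ1FKO fibroblasts.

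The test against 0.6, the scalings and the exon lengths were chosen after seeing the data. The count-based alternatives (edgeR, DESeq2 and TMM scaling) were planned and not run. Reads recovered from the normalised counts were used only for depth and for the filter of at least 10 reads in every library. Counting error was not estimated for the 8 genes, whose lowest normalised count was 228.4.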
